A study of Mus musculus with 12 samples.

Results

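The 7 genes described here are the antigen-receptor response genes Nr4a1, Nr4a2, Nr4a3, Egr1, Egr2, Egr3 and Cd69, followed through regulatory T cells (Tregs) of mice with a Foxp3-driven Cre and either both alleles or 1 allele of the histone methyltransferase gene Ezh2 floxed. They were found by gene symbol among 23352 symbols in the deposited expression files, and all 7 were present there and were expressed above the filter used for testing. Engagement of the T cell receptor opens calcium, NFAT and RAS-ERK signalling, and within minutes to hours these pathways switch on the genes of both families without new protein synthesis. The NR4A proteins are orphan nuclear receptors that act without a known ligand and are used in Tregs to sustain Foxp3, the factor that defines the lineage. The EGR proteins are zinc finger transcription factors, of which Egr2 and Egr3 are known for restraining T cells after receptor engagement. Cd69 encodes a C-type lectin that appears early on activated lymphocytes and draws the egress receptor S1P1 off the cell surface.

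The cells came from female C57BL/6 mice, whose splenic and lymph node Tregs were sorted by surface CD62L, the lymph node homing receptor, into a CD62Llo and a CD62Lhi fraction. KO mice had the genotype Foxp3YFP-Cre/Foxp3WT;Ezh2fl/fl and HET mice Foxp3YFP-Cre/Foxp3WT;Ezh2fl/+, and ages were not given in the labels. The groups were KO CD62Llo (n = 3 libraries), KO CD62Lhi (n = 3), HET CD62Llo (n = 3) and HET CD62Lhi (n = 2). Both genotypes therefore carry the Foxp3-driven Cre on 1 Foxp3 allele next to a wild-type one, and the HET cells that serve as controls have a floxed Ezh2 allele of their own. Because Foxp3 is X-linked, Cre is present in part of the Tregs of such females, and the labels do not say whether YFP-positive cells were gated. Whether each library stands for its own mouse is not stated in the labels, so the p-values cover the spread between libraries, part of which may be technical.

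Of 12 libraries 1, HET CD62Lhi replicate 3, was set aside by its label for low read counts. All 7 genes were listed at 0 in it, and it was left out. In the 11 others 10597 to 11024 symbols reached 1 FPKM (fragments mapped to a gene, scaled by transcript length and library size), and Foxp3 stood at 75.9 to 96.8 FPKM. Ezh2 had 12.5, 16.8 and 14.4 FPKM in KO CD62Llo and 18.2, 17.8 and 20.5 FPKM in HET CD62Llo, and it had 9.15, 11.5 and 11.02 FPKM in KO CD62Lhi and 12.7 and 12.5 FPKM in HET CD62Lhi. The genotypes did not overlap in either fraction, although neither difference passed the test (log2 change −0.36, adjusted p = 0.113 and −0.24, adjusted p = 1 by limma), and a gene-level value does not single out the floxed segment. KO CD62Llo replicate 3 stood apart from its group. Its Pearson r over all tested genes was 0.949 and 0.950 with the other KO CD62Llo libraries and 0.955 to 0.963 with the KO CD62Lhi libraries.

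All 7 genes were detected in each of the 11 libraries, with Nr4a2 under 1 FPKM in every CD62Lhi library, and their levels spanned more than an order of magnitude. In KO CD62Llo the order of mean FPKM, which is a level per transcript length, was Cd69, Nr4a1, Egr1, Egr2, Egr3, Nr4a3 and Nr4a2. Cd69 averaged 52.6 ± 8.43 FPKM and Nr4a1 52.2 ± 2.23 FPKM there (SD, n = 3), and their ranges overlapped. Egr2 and Egr3 also overlapped, at 24.6 ± 5.24 and 23.2 ± 1.19 FPKM, while each other neighbouring pair was separated in all 3 libraries. The lowest was Nr4a2 at 1.16 ± 0.23 FPKM. In HET CD62Llo Nr4a1 was first at 63.8 ± 7.58 FPKM and overlapped with Cd69 at 52.4 ± 14.8 FPKM, which overlapped with Egr1 at 47.0 ± 4.35 FPKM. In both CD62Lhi groups Cd69 was first, overlapping with Nr4a1, and Egr3 had the higher mean of the 2 smaller Egr genes, at 15.2 ± 1.99 FPKM beside 11.02 ± 0.33 FPKM for Egr2 in KO (SD, n = 3) and at 17.3 ± 2.73 FPKM beside 13.8 ± 2.26 FPKM in HET (SD, n = 2), where their ranges overlapped. The authors' intervals had a half-width of 3.76% to 6.25% of the midpoint for Nr4a1 and of 13.5% to 36.9% for Nr4a2. If the interval covers 2 SD to each side, that half-width corresponds to 1023 to 2835 fragments for Nr4a1 and 29.3 to 221 fragments for Nr4a2. All 11 deposited values of Nr4a1 and all 11 of Cd69 lie above their own upper bound, as do 8 of 11 for Egr3, 5 of 11 for Egr1 and 0 of 11 for Nr4a2, so these implied depths are uncertain.

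**Figure D1:**
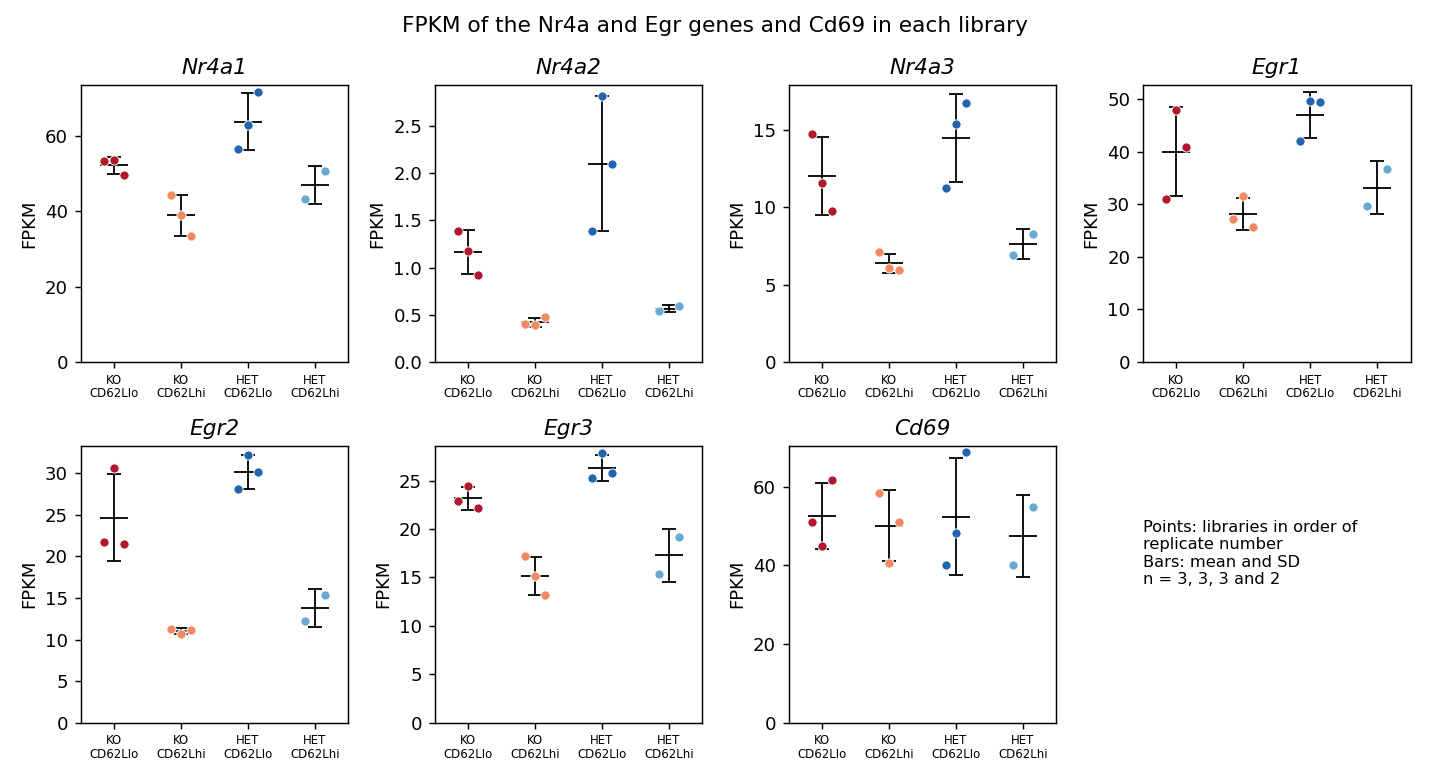
FPKM (linear axes, one scale per gene) of the 7 genes in each of the 11 libraries, with points for libraries in order of replicate number and bars for the group mean and SD. For Egr2 the KO CD62Llo libraries lie at 21.5 to 30.7 and KO CD62Lhi at 10.6 to 11.3, and for Cd69 the ranges of all 4 groups overlap.

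The stretch of DNA just upstream of the start site is shown, from RefSeq on GRCm38.p6, for the 4 of 7 members that had a window available. The windows of 250 bases end at the base before the start. None was available here for Egr1, Egr3 and Cd69, so the choice of the 4 does not rest on their values. Those of Nr4a1 (chr15:101266596-101266845, plus strand), Nr4a2 (chr2:57124004-57124253, minus strand) and Egr2 (chr10:67537619-67537868, plus strand) end where the gene's locus begins in the deposited files, which use mm10. The window of Nr4a3 (chr4:48045055-48045304, plus strand) belongs to a RefSeq start that lies 5943 bases upstream of the start of the locus in the files. Capitals mark the half-site of the cAMP response element (TGACG, or CGTCA when it lies on the other strand) and, in Egr2, the serum response element or CArG box.
Nr4a1: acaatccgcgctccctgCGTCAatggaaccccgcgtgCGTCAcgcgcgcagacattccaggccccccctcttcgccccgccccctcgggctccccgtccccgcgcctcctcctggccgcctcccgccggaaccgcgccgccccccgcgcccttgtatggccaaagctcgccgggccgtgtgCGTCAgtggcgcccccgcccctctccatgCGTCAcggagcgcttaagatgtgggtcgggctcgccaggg
Nr4a2: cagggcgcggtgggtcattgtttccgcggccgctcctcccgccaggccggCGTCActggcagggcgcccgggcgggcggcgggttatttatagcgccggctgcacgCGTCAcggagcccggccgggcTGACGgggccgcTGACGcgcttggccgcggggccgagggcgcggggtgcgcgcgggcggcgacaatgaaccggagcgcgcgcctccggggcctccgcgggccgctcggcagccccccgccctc
Nr4a3: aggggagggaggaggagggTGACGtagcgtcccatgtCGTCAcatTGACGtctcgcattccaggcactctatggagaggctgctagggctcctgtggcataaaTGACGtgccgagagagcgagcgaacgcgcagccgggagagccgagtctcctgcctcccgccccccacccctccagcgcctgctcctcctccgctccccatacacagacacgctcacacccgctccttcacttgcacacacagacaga
Egr2: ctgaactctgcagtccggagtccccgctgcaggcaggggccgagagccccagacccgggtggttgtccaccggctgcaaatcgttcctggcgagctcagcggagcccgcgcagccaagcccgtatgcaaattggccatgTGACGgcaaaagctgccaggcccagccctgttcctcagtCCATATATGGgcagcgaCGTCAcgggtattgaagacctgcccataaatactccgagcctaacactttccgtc
The half-site occurred 4 times each in the Nr4a1, Nr4a2 and Nr4a3 windows and 2 times in the Egr2 window shown. Egr2 has further RefSeq starts, and its matches depend on the start chosen. Windows of the starts 2370 and 303 bases further upstream hold no half-site, and that at 303 bases holds another CArG box, CCTTTTTTGG. Windows of the starts slightly further downstream hold 2 half-sites. At least 1 half-site was present in 17.9% of 32536 RefSeq windows of the same length, and at least 4 in 0.138%. The half-site was searched for after the windows had been read, and it is contained in the full element TGACGTCA, which none of the 4 windows holds and which 1.56% of all windows do. The CArG box of Egr2, CCATATATGG, lies 72 to 63 bases before the start, and 1.48% of all windows hold a box of that kind. Searched on both strands, the EGR site GCGTGGGCG (0.541% of windows), the NR4A monomer site AAAGGTCA (1.35%) and the AP-1 site TGANTCA (6.73%) were absent from these letters. These matches describe the windows, and binding was not measured.

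The first comparison asks how CD62Llo Tregs, which in mice are the antigen-experienced fraction, differ from CD62Lhi Tregs within each genotype. The 6 transcription factor genes had higher means in CD62Llo cells of both genotypes, while the mean of Cd69 differed by less than its spread between libraries. In KO cells 5 of the 7 genes passed the test as higher, where 11.9% of the 11431 tested genes did, and in HET cells 5 of 7 passed as higher, where 18.8% did. The same 5 genes passed in both genotypes, namely Nr4a1, Nr4a2, Nr4a3, Egr2 and Egr3. The 7 genes were chosen with earlier results of these data known, so their counts beside all genes are not independent evidence. Nr4a2 reached the 1 FPKM needed for testing in CD62Llo libraries alone, so its presence among the tested genes already favoured a difference, and of the other 6 genes 4 passed in each genotype. Of all genes that passed, 73.7% were higher in KO and 67.9% in HET, and after median centring 51.3% and 45.2% were, so the background depends on the scaling. The median log2 change of the 7 genes was 0.59 in KO and 0.59 in HET, beside 0.05 and 0.07 over all tested genes. The ranges of the fractions did not overlap for 5 of the 7 genes in KO (24.3% of all genes lay higher without overlap) and for 6 of 7 in HET (36.1%). The test was limma on log2(FPKM + 1) over 11 libraries, so a log2 change understates the change of a gene near or under 1 FPKM. In bulk samples such as these, fewer cells of a type and less RNA per cell cannot be told apart.

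Egr2, which restrains T cells after receptor engagement, had 21.7, 30.7 and 21.5 FPKM in KO CD62Llo against 11.3, 10.6 and 11.2 FPKM in KO CD62Lhi. In HET it had 28.1, 32.3 and 30.2 FPKM in CD62Llo against 12.2 and 15.4 FPKM in CD62Lhi. Every CD62Llo library was above every CD62Lhi library in both genotypes, and the ratio of means was 2.24 in KO and 2.18 in HET. Egr2 rose with a log2 change of 1.07 ± 0.13 (SE) in KO (adjusted p = 7.0e-04) and of 1.08 ± 0.15 in HET (adjusted p = 6.3e-04). It passed the test under each of the 21 alternatives tried in both genotypes, with adjusted p from 0.00035 to 0.0065 in KO and from 9.4e-05 to 0.0092 in HET.

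Its close relative Egr3 had 22.8, 24.5 and 22.2 FPKM in KO CD62Llo against 17.2, 15.1 and 13.2 FPKM in KO CD62Lhi. In HET Egr3 had 25.3, 27.9 and 25.8 FPKM in CD62Llo against 15.3 and 19.2 FPKM in CD62Lhi. The fractions were separate in each genotype, by a smaller factor than for Egr2. The log2 change of Egr3 was 0.59 ± 0.10 in KO (adjusted p = 0.0046) and 0.59 ± 0.11 in HET (adjusted p = 0.0044), and without HET CD62Lhi replicate 1 the HET value was 0.43 (adjusted p = 0.051). The order of Egr2 and Egr3 differed between the fractions. Within a library the ratio of Egr2 to Egr3 FPKM was 0.950, 1.25 and 0.971 in KO CD62Llo against 0.656, 0.703 and 0.846 in KO CD62Lhi, and 1.11, 1.16 and 1.17 in HET CD62Llo against 0.797 and 0.803 in HET CD62Lhi. All CD62Lhi libraries and 2 of 3 KO CD62Llo libraries had more Egr3 than Egr2, whereas all 3 HET CD62Llo libraries had more Egr2. The smallest two-sided p of an exact permutation test is 0.1 for 3 libraries against 3 and 0.2 for 3 against 2, so these ratios are given without a test.

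Egr1, the immediate early member that ERK signalling induces through serum response factor, had 31.1, 47.9 and 41.0 FPKM in KO CD62Llo against 27.2, 31.5 and 25.6 FPKM in KO CD62Lhi. In HET it had 42.0, 49.6 and 49.5 FPKM in CD62Llo against 29.7 and 36.7 FPKM in CD62Lhi. KO CD62Llo replicate 1 lay within the CD62Lhi range, and the HET fractions were separate. The log2 change of Egr1 was 0.48 in KO (95% interval 0.13 to 0.82, adjusted p = 0.065) and 0.49 in HET (0.11 to 0.88, adjusted p = 0.058), and neither passed. Its adjusted p ranged from 0.012 to 0.206 over 21 alternatives in KO and from 0.012 to 0.321 in HET. Averaged over the genotypes, which uses all 11 libraries, Egr1 rose with a log2 change of 0.49 ± 0.11 (adjusted p = 0.0087), and 6 of the 7 genes passed as higher there beside 25.5% of all genes. Beside Egr2 it was less abundant in CD62Llo cells, with a ratio of Egr1 to Egr2 FPKM of 1.43 to 1.90 in KO CD62Llo against 2.30 to 2.96 in KO CD62Lhi and 1.49 to 1.64 in HET CD62Llo against 2.38 to 2.43 in HET CD62Lhi.

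Among the nuclear receptors, Nr4a1 (Nur77), the most abundant, had 53.4, 53.6 and 49.7 FPKM in KO CD62Llo against 44.4, 39.0 and 33.6 FPKM in KO CD62Lhi. In HET it had 56.6, 63.1 and 71.7 FPKM in CD62Llo against 43.3 and 50.6 FPKM in CD62Lhi. The fractions were separate in both genotypes, with ratios of means of 1.34 in KO and 1.36 in HET. Nr4a1 rose with a log2 change of 0.42 ± 0.11 in KO (adjusted p = 0.033) and 0.43 ± 0.13 in HET (adjusted p = 0.031). These calls were close to the threshold. The KO call was lost under 8 of 21 alternatives, with adjusted p up to 0.103, and the HET call under 6 of 21, with adjusted p up to 0.217 without HET CD62Lhi replicate 1.

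Nr4a3 (Nor1) had 14.7, 11.6 and 9.78 FPKM in KO CD62Llo against 7.11, 6.09 and 5.98 FPKM in KO CD62Lhi. In HET it had 11.3, 15.4 and 16.8 FPKM in CD62Llo against 6.94 and 8.31 FPKM in CD62Lhi. Every CD62Llo library was higher than every CD62Lhi library of its genotype. Nr4a3 rose by a ratio of means of 1.88 in KO (log2 change 0.81 ± 0.16, adjusted p = 0.0096) and 1.90 in HET (0.83 ± 0.18, adjusted p = 0.0084), and without HET CD62Lhi replicate 1 the HET value was 0.72 (adjusted p = 0.076). Its share beside Nr4a1 was also larger in CD62Llo cells, with an Nr4a3 to Nr4a1 ratio of 0.197 to 0.276 in KO CD62Llo against 0.156 to 0.178 in KO CD62Lhi and of 0.200 to 0.244 in HET CD62Llo against 0.160 to 0.164 in HET CD62Lhi.

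Nr4a2 (Nurr1) was the rarest of the 3, at 1.39, 1.18 and 0.920 FPKM in KO CD62Llo against 0.399, 0.387 and 0.476 FPKM in KO CD62Lhi. In HET it had 1.39, 2.81 and 2.0996 FPKM in CD62Llo against 0.536 and 0.594 FPKM in CD62Lhi. The fractions were separate in both genotypes, and the ratio of means, 2.76 in KO and 3.72 in HET, was the largest of the 7 genes. On the log2(FPKM + 1) scale Nr4a2 rose by 0.60 ± 0.16 in KO (adjusted p = 0.030) and by 0.96 ± 0.18 in HET (adjusted p = 0.0033). Since Nr4a2 met the filter of 1 FPKM through CD62Llo libraries alone, these p-values are no independent support, and with no such filter the adjusted p was 0.043 in KO and 0.0056 in HET. With a pseudocount of 0.1 the log2 change was 1.26 in KO and 1.67 in HET. The KO call was lost under 6 of the 20 alternatives that give a value, with an adjusted p of 0.227 under quantile normalization.

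**Figure D2:**
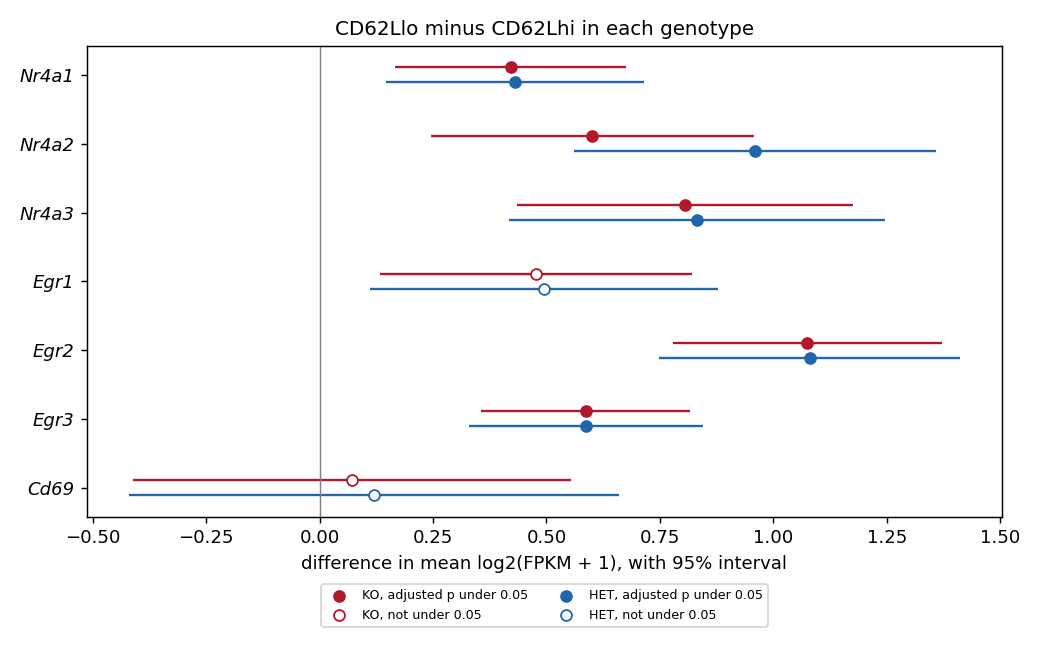
Difference in mean log2(FPKM + 1), CD62Llo minus CD62Lhi, for each gene in KO (red, upper) and HET (blue, lower), with 95% intervals; filled points have an adjusted p under 0.05 by limma. The estimates of the genotypes lie close together for each gene except Nr4a2, at 0.60 in KO and 0.96 in HET.

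**Figure D3:**
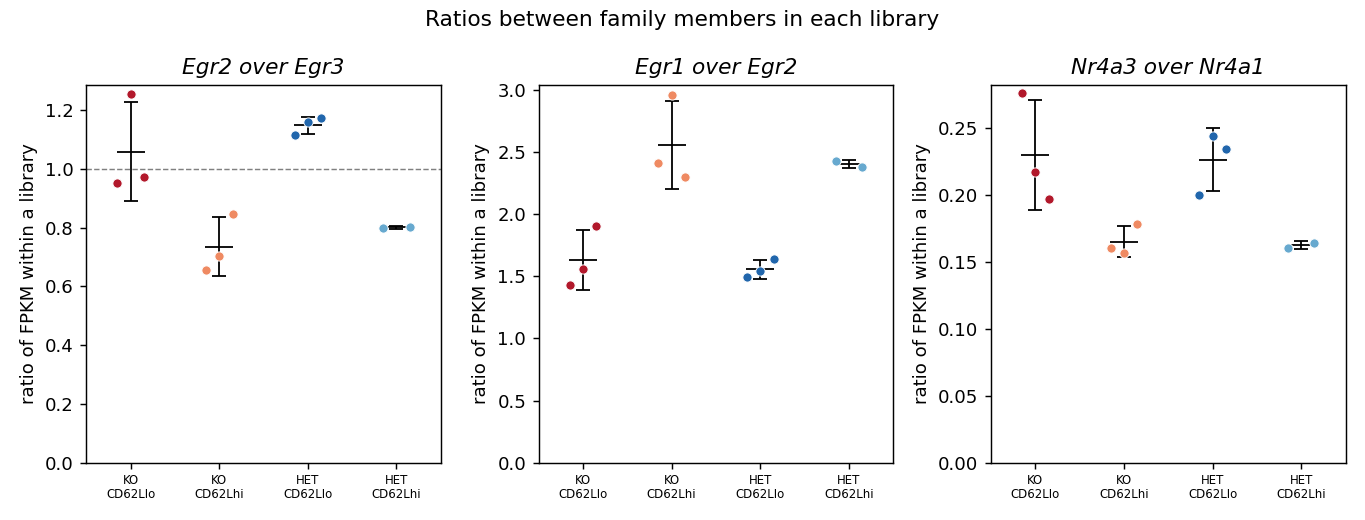
Ratio of FPKM between family members within each library (linear axes from 0), with points for libraries and bars for the group mean and SD; the dashed line marks equal FPKM. The Egr2 to Egr3 ratio is 0.950 to 1.25 in KO CD62Llo against 0.656 to 0.846 in KO CD62Lhi, and 1.11 to 1.17 in HET CD62Llo against 0.797 to 0.803 in HET CD62Lhi.

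Cd69, the surface marker of recent receptor engagement, had 51.1, 45.0 and 61.6 FPKM in KO CD62Llo against 58.5, 40.6 and 51.1 FPKM in KO CD62Lhi. In HET it had 40.1, 48.1 and 68.8 FPKM in CD62Llo against 40.2 and 54.8 FPKM in CD62Lhi. The fractions overlapped in both genotypes, and the spread within a group was wider than the difference between groups. The log2 change of Cd69 was 0.07 in KO (95% interval −0.41 to 0.56, adjusted p = 0.865, and −0.01 after median centring) and 0.12 in HET (−0.42 to 0.66, adjusted p = 0.751), so a rise of the size seen for Nr4a1 lies within both intervals and a fall of that size lies just outside them. In the authors' deposited table of group values the CD62Llo to CD62Lhi ratio of Cd69 was 0.986 in KO and 1.02 in HET, where that of Egr2 was 2.12 in KO and 2.05 in HET.

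Several other measures moved with the fractions. Myeloid markers, 10 genes led by Lyz2, summed to 169, 306 and 39.2 FPKM in KO CD62Llo against 23.4, 30.7 and 20.6 FPKM in KO CD62Lhi, and to 132, 68.2 and 58.1 FPKM in HET CD62Llo against 45.0 and 20.1 FPKM in HET CD62Lhi. Lyz2 was the 1 of 5 tested myeloid genes that passed as higher in each genotype, while S100a8 was listed at 0 in all HET libraries and S100a9 in all CD62Lhi libraries. KO CD62Llo replicate 2, with the largest myeloid sum, was the highest of its group for Nr4a1, Egr1, Egr2 and Egr3, and without it Egr2 and Egr3 still passed in KO (log2 change 0.91, adjusted p = 0.00074 and 0.55, adjusted p = 0.022) as did Nr4a3 (0.82, adjusted p = 0.032), while Nr4a1 (0.40, adjusted p = 0.103) and Nr4a2 (0.59, adjusted p = 0.086) did not. HET CD62Llo replicate 1, with the largest myeloid sum of its group, was the lowest of its group for all 7 genes. The 8 B cell markers summed to 27.6 to 67.9 FPKM in KO CD62Llo against 81.7 to 140 FPKM in KO CD62Lhi and to 24.4 to 36.7 FPKM in HET CD62Llo against 85.0 to 103 FPKM in HET CD62Lhi, with 6 of 8 passing as lower in KO and 5 of 8 in HET. None of the 8 was at 0 in a whole group. Of 8 CD8 T cell and NK cell markers 5 were tested, and in each genotype Nkg7 and Klrb1c passed as higher and Cd8a and Cd8b1 as lower. Cd8b1 averaged 11.4 FPKM in KO CD62Llo against 26.02 FPKM in KO CD62Lhi and 10.7 FPKM in HET CD62Llo against 31.4 FPKM in HET CD62Lhi. The 8 summed to 36.01 to 52.4 FPKM in KO CD62Llo against 46.2 to 52.6 FPKM in KO CD62Lhi and to 45.6 to 52.9 FPKM in HET CD62Llo against 58.1 and 63.005 FPKM in HET CD62Lhi, with Klre1 and Klra8 at 0 in all HET CD62Llo libraries. Pecam1, the 1 tested of 8 stroma and endothelium markers, was lower in CD62Llo cells of both genotypes. It averaged 52.6 FPKM in KO CD62Llo against 72.96 FPKM in KO CD62Lhi and 38.8 FPKM in HET CD62Llo against 69.6 FPKM in HET CD62Lhi. The others of that list averaged under 1 FPKM in each group, so Pecam1 by itself does not identify such cells. The part of these other cells in the results was not tested. Without KO CD62Llo replicate 3, the library whose profile was nearest to KO CD62Lhi, the same 5 genes passed in KO, with log2 changes of 0.46 for Nr4a1, 0.68 for Nr4a2, 0.93 for Nr4a3, 1.16 for Egr2 and 0.62 for Egr3.

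**Figure D4:**
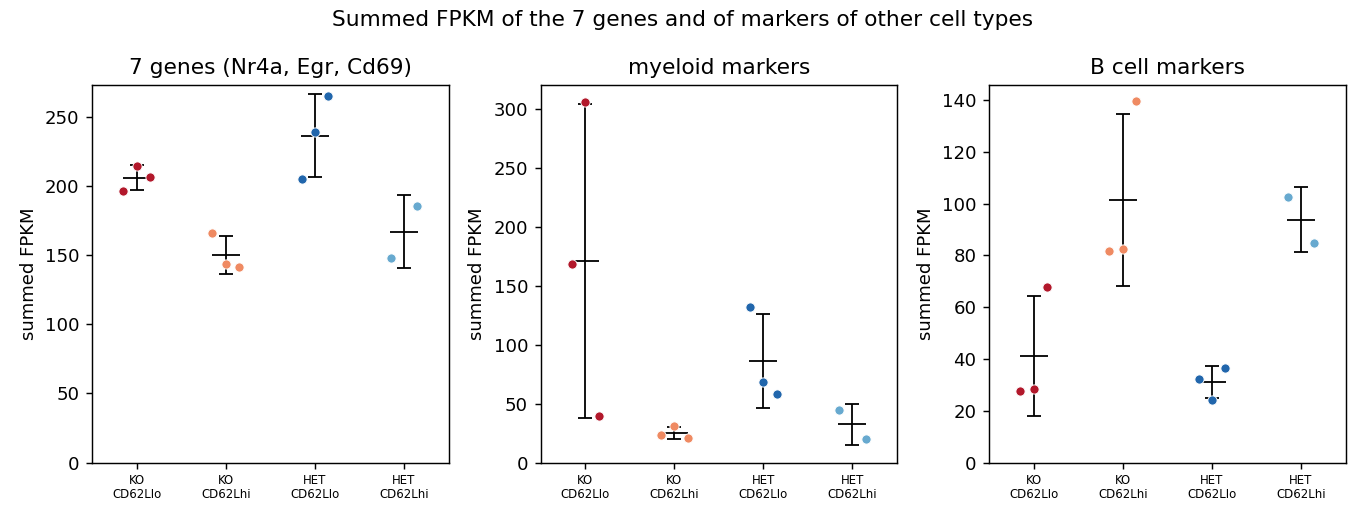
Summed FPKM (linear axes from 0) of the 7 genes, of 10 myeloid markers and of 8 B cell markers in each library, with bars for the group mean and SD. The 7 genes sum to 196 to 214 in KO CD62Llo against 141 to 166 in KO CD62Lhi and to 205 to 265 in HET CD62Llo against 148 to 186 in HET CD62Lhi, and the myeloid sum is highest in KO CD62Llo replicate 2, at 306.

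The next comparison asks whether the fraction difference depends on Ezh2. For none of the 7 genes did the fraction difference in KO and in HET differ by the test. Of 11431 genes 1 passed it (0.00875%), Mir1905, named here after its value was seen. The KO difference minus the HET difference was −0.01 for Egr2 (95% interval −0.45 to 0.44), −0.00036 for Egr3 (−0.35 to 0.35), −0.01 for Nr4a1 (−0.39 to 0.37), −0.03 for Nr4a3 (−0.58 to 0.53) and −0.02 for Egr1 (−0.53 to 0.50). For Nr4a2 it was −0.36 (−0.89 to 0.17, adjusted p = 0.759) and for Cd69 −0.05 (−0.77 to 0.68). These intervals are wide beside the fraction differences themselves, and for the genes other than Nr4a2 the sign of the value turned under at least 1 other setting.

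The comparison of genotypes within a fraction asks what the loss of the second Ezh2 allele does to these genes. The 6 transcription factor genes had lower means in KO than in HET cells of both fractions and Cd69 did not, but none of the 7 passed the test. The median log2 change of the 7 genes was −0.25 in CD62Llo and −0.22 in CD62Lhi cells, beside −0.03 and −0.02 over all tested genes. In CD62Llo cells 4.6% of all genes passed in either direction, of which 29.5% were higher, or 42.7% after median centring. An unadjusted p under 0.05 by limma was reached by 2160 of 11431 genes in these cells. There the log2 change was −0.50 for Nr4a2 (95% interval −0.85 to −0.14, adjusted p = 0.122), −0.30 for Egr2 (−0.60 to −0.003, adjusted p = 0.260), −0.28 for Nr4a1 (−0.53 to −0.02, adjusted p = 0.229), −0.25 for Nr4a3, −0.25 for Egr1, −0.18 for Egr3 and 0.03 for Cd69. Nr4a1, at 49.7 to 53.6 FPKM in KO CD62Llo against 56.6 to 71.7 FPKM in HET CD62Llo, and Egr3, at 22.2 to 24.5 FPKM against 25.3 to 27.9 FPKM, were the 2 genes lower without overlap, as 13.7% of all genes were. The other 5 overlapped. Set beside the HET CD62Llo library of the same number, KO was lower in 3 of 3 pairs for Egr1 and Egr2 and in 2 of 3 for Nr4a2, Nr4a3 and Cd69. For Nr4a1 and Egr3 it was lower in 3 of 3, as the lack of overlap already requires. The share of all genes lower in 3 of 3 pairs was not counted. With the number as a block the adjusted p was 0.170 for Egr1 and 0.146 for Egr2.

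Single libraries moved 2 of these values over the threshold. Without HET CD62Llo replicate 1 the log2 change of Nr4a2 was −0.67 (adjusted p = 0.027), and without KO CD62Llo replicate 2 that of Egr2 was −0.46 (adjusted p = 0.028). Without KO CD62Llo replicate 3 all 6 factors kept a negative log2 change in CD62Llo cells, from −0.12 for Nr4a3 to −0.42 for Nr4a2, with none passing, and Cd69 was at −0.09. The myeloid sums given above ran from 39.2 to 306 FPKM in KO CD62Llo against 58.1 to 132 FPKM in HET CD62Llo, and their part was not tested.

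In CD62Lhi cells 0 of 11431 genes passed by limma (0%), with 328 at an unadjusted p under 0.05, and 5 when the 5 CD62Lhi libraries were fitted alone. All 6 factors had lower means in KO here too, but they follow each other over the libraries and are not 6 separate observations. The log2 change was −0.29 for Egr2 (95% interval −0.63 to 0.04), −0.27 for Nr4a1 (−0.55 to 0.02), −0.23 for Egr1, −0.22 for Nr4a3, −0.18 for Egr3, −0.14 for Nr4a2 and 0.08 for Cd69, each with an adjusted p of 1. Egr2, at 10.6 to 11.3 FPKM in KO CD62Lhi against 12.2 and 15.4 FPKM in HET CD62Lhi, and Nr4a2, at 0.387 to 0.476 FPKM against 0.536 and 0.594 FPKM, were lower without overlap, as 14.4% of all genes were. Averaged over both fractions 1.47% of all genes passed and none of the 7 did. The averaged log2 change was −0.32 for Nr4a2 (95% interval −0.59 to −0.05, adjusted p = 0.243), −0.30 for Egr2 (−0.52 to −0.07, adjusted p = 0.195), −0.27 for Nr4a1 (−0.46 to −0.08, adjusted p = 0.171) and 0.05 for Cd69 (−0.31 to 0.41, adjusted p = 0.928). The unadjusted intervals of Nr4a1, Nr4a2, Egr2 and Egr3 excluded 0, but none of these differences held after adjustment over all genes with all 11 libraries. In the same averaged comparison 1695 of 11431 tested genes had an unadjusted p under 0.05 by limma. Without KO CD62Llo replicate 2 the averaged log2 change of Egr2 was −0.38 and passed (adjusted p = 0.031).

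**Figure D5:**
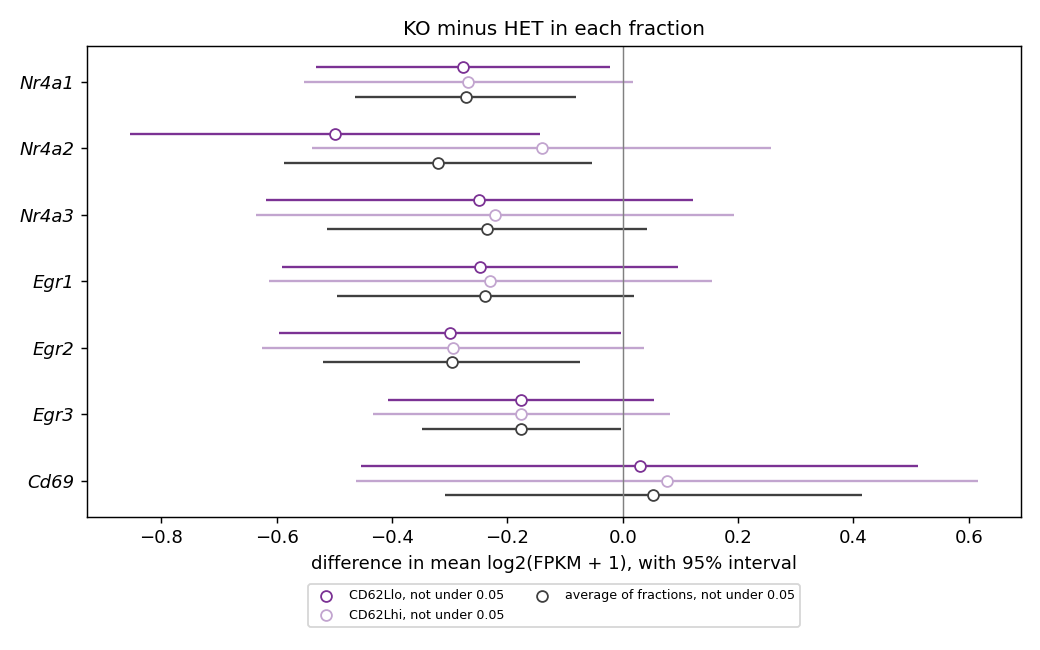
Difference in mean log2(FPKM + 1), KO minus HET, for each gene in CD62Llo cells, in CD62Lhi cells and averaged over both, with 95% intervals; open points have an adjusted p of 0.05 or more by limma. All points of the 6 factor genes lie between −0.50 and −0.14 and those of Cd69 between 0.03 and 0.08.

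The genes that feed into the 7 or answer beside them were read from lists. Of all tested genes 4.26% were lower in the KO fraction comparison and 8.88% in that of HET, beside the shares higher given above, and 1.36% were higher and 3.25% lower in KO against HET CD62Llo cells. Genes of the calcium and NFAT pathway moved in both directions, with 4 of 19 tested genes higher and 2 lower in KO CD62Llo against KO CD62Lhi, and 4 higher and 3 lower in HET. Nfatc1, the NFAT gene that is itself induced by calcium signals, averaged 61.0 FPKM in KO CD62Llo against 29.3 FPKM in KO CD62Lhi (log2 change 1.02, adjusted p = 3.6e-04) and 80.8 FPKM in HET CD62Llo against 31.7 FPKM in HET CD62Lhi (1.32, adjusted p = 7.9e-05). Nfat5 and the calcineurin inhibitor gene Rcan1 also rose in both genotypes, while Ppp3ca, which encodes a calcineurin catalytic subunit, fell (−0.61 in KO and −0.68 in HET). Between genotypes in CD62Llo cells, 1 of the 19 passed, Rcan3 at 0.24 (adjusted p = 0.017).

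Of the RAS, ERK and serum response factor pathway 4 of 27 tested genes were higher and 3 lower in the KO fractions, and 8 higher and 4 lower in the HET fractions, with medians of −0.02 and −0.01. Spry1, an inhibitor of RAS-ERK signalling, rose by 1.13 in KO and 1.06 in HET, Dusp6, an ERK phosphatase, by 0.58 and 0.57, and Elk3, a transcription factor gene of the ternary complex family, by 0.47 and 0.62. Rasa3, a RAS-inactivating protein, fell by 0.63 in KO and by 1.04 in HET, and Rasgrp1, which activates RAS downstream of the receptor, fell by 0.27 in KO and by 0.37 in HET.

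Among other receptor-induced genes 20 of 30 were higher and 0 lower in the KO fractions, and 21 were higher and 1, Myc, lower in the HET fractions, with median log2 changes of 0.65 and 0.78. Tigit, an inhibitory receptor, averaged 36.3 FPKM in KO CD62Llo against 2.59 FPKM in KO CD62Lhi and 128 FPKM in HET CD62Llo against 4.80 FPKM in HET CD62Lhi. Lag3 rose by 3.12 in KO and by 3.93 in HET on the log2 scale, and Pdcd1 by 2.02 and 2.38, which is more than any of the 7 genes. Between genotypes in CD62Llo cells this list had 9 of 30 lower and 1 higher, where none of the 7 passed. Tigit was lower in KO CD62Llo by a log2 change of −1.78 (adjusted p = 0.015), Icos, a costimulatory receptor, by −1.12 (adjusted p = 0.0082) and the transcription factor gene Nfil3 by −0.89 (adjusted p = 0.013), while Myc was higher by 0.35 (adjusted p = 0.034). This list was chosen with earlier results of these libraries known, so its direction is not independent evidence.

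Partners and brakes connected with the EGR factors had 5 of 18 tested genes higher and 1 lower in the KO fractions, and 7 higher and 3 lower in the HET fractions. Id2, which encodes an inhibitor of E protein transcription factors, rose by 1.52 in KO and by 1.99 in HET, and it was lower in KO than in HET CD62Llo cells (−0.62, adjusted p = 0.047), as was Sla (−0.48, adjusted p = 0.031). The phosphatase genes Ptpn22 and Ubash3b, which damp receptor signalling, rose in both genotypes by 0.69 to 1.17. Dgka, a diacylglycerol kinase gene that dampens RAS activation and is a target of Egr2 in mouse T cells, fell by 0.31 in KO and by 0.54 in HET, opposite in direction to Egr2.

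Genes of sorting and stress responses, which can be induced while cells are handled, had 5 of 25 tested genes higher and 1 lower in each genotype's fraction comparison. Dusp1, a MAP kinase phosphatase, rose by 1.13 in KO and by 1.23 in HET, and Zfp36l1 by 0.58 and 0.73, whereas Ier2 fell by 0.18 and by 0.39. Fos averaged 3.86 FPKM in KO CD62Llo against 2.56 FPKM in KO CD62Lhi and 4.50 FPKM in HET CD62Llo against 2.49 FPKM in HET CD62Lhi. It did not pass in either genotype. Averaged over the genotypes Fos passed by limma as 1 of 10 of 25 genes higher, beside 25.5% of all genes, with 1 lower. Jun passed as higher in KO (0.46, adjusted p = 0.013) and not in HET (0.28, adjusted p = 0.096). Fosb passed in HET (0.57, adjusted p = 0.0060) and not in KO (0.32, adjusted p = 0.072), with 1.05 FPKM in HET CD62Llo and under 1 FPKM elsewhere on average. The summed FPKM of the list was 2094 to 2159 in KO CD62Llo against 1841 to 2058 in KO CD62Lhi, and 2268 to 2436 in HET CD62Llo against 2143 and 2148 in HET CD62Lhi. The sum was thus also higher in CD62Llo and in HET libraries. Hspa8 was its largest part, averaging 787 in KO CD62Llo, 751 in KO CD62Lhi, 930 in HET CD62Llo and 872 FPKM in HET CD62Lhi. By limma 1 of the 25 genes, Zfp36l1, was lower in KO than in HET CD62Llo cells. The part of this list in the levels of the 7 genes was not tested.

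Unlike Cd69 itself, the egress and retention genes around it differed between the fractions, with 3 of 9 higher and 4 lower in KO and 3 higher and 6 lower in HET. S1pr1, whose product CD69 removes from the surface, averaged 107 FPKM in KO CD62Llo against 200 FPKM in KO CD62Lhi and 65.1 FPKM in HET CD62Llo against 193 FPKM in HET CD62Lhi. Klf2, the factor that drives S1pr1, fell by 1.01 in KO and by 1.69 in HET, and Itgae, which encodes the integrin CD103, rose by 2.41 and 2.91. In CD62Llo cells S1pr1 (0.70, adjusted p = 0.0078), Klf2 (0.70, adjusted p = 0.0078) and Ccr7 (0.60, adjusted p = 0.033) were higher in KO than in HET. Treg genes linked with NR4A function had 2 of 12 higher and 2 lower in the KO fractions and 2 higher and 3 lower in the HET fractions, with Ikzf2 (0.56 in KO and 0.80 in HET) and Bcl6 (0.72 and 1.06) higher and Lef1 (−0.63 and −1.15) and Bach2 (−0.44 and −1.01) lower. Foxp3 averaged 84.2 ± 11.05 FPKM in KO CD62Llo against 87.8 ± 3.58 FPKM in KO CD62Lhi and 88.0 ± 6.57 FPKM in HET CD62Llo against 91.8 ± 2.74 FPKM in HET CD62Lhi. Of 11 Polycomb repressive complex 2 genes 3 were higher in the KO fractions and 5 in the HET fractions with 0 lower, and Ezh2 itself was among them at 0.43 in KO (adjusted p = 0.028) and 0.55 in HET (adjusted p = 0.0093). In KO against HET CD62Lhi cells 0 genes of any of these lists passed.

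Across the 11 libraries the 6 factor genes followed each other, with Pearson r of log2(FPKM + 1) from 0.770 (Nr4a3 with Egr1) to 0.962 (Egr2 with Egr3). Cd69 had r of 0.149 to 0.329 with them. These values are a description, since the libraries share the split into fractions and genotypes. Within a group the order of the libraries differed between genes in KO. HET CD62Llo replicate 1 and HET CD62Lhi replicate 1 were the lowest of their groups for all 7 genes, and KO CD62Llo replicate 3 was the lowest of its group for 5 of 7 but the highest for Cd69. In KO CD62Lhi replicate 3 was the lowest for Nr4a1, Nr4a3, Egr1 and Egr3 but the highest for Nr4a2, and replicate 2 was the lowest for Nr4a2, Egr2 and Cd69 but the highest for Egr1.

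The genes whose pattern over the 11 libraries was most like each member were taken from 7937 genes with a mean of at least 5 FPKM. They are the highest of many correlations over libraries that share the split into fractions and genotypes. These values too are a description. Closest to Egr2 were Cd99l2 (r = 0.994), Mrps6 (0.988) and Twsg1 (0.986), and Cd99l2 was also closest to Egr3 (0.973), ahead of Stk39 (0.967) and Ormdl2 (0.964). Twsg1 averaged 33.5 FPKM in KO CD62Llo against 14.2 FPKM in KO CD62Lhi and 44.4 FPKM in HET CD62Llo against 15.4 FPKM in HET CD62Lhi. Nr4a1 was most like Ccr9 (0.968), a gut homing receptor gene, Nfkbid (0.961) and Zfp275 (0.957). Nr4a2 was most like Ermp1 (0.982), Zbtb1 (0.981) and the chemokine receptor gene Ccr8 (0.977), which averaged 12.2 FPKM in KO CD62Llo against 3.78 FPKM in KO CD62Lhi and 24.4 FPKM in HET CD62Llo against 4.70 FPKM in HET CD62Lhi. Nr4a3 was most like Dusp1 (0.969), Zfp862 (0.964) and Cd200 (0.958), and Egr1 most like Mrpl13 (0.966), Hadha (0.961) and Stam2 (0.956). The nearest gene to Cd69, Hnrnpa2b1, which encodes an RNA-binding protein, reached 0.899 and was followed by Prpf4b (0.857) and Rbm28 (0.839).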

How the data were processed

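Poly(A) libraries of sorted Tregs were sequenced as 50-base single reads, per the labels' protocols. Per the submitters' processing notes, the tools used were Cufflinks 2.1.1, TopHat, FastQC and CASAVA 1.8.2, with mm10 as the build, while the settings were not given in the sources used here. Each gene's FPKM was deposited by the authors with a lower and an upper bound, used here for precision and for 1 alternative. Of the 77 values of the 7 genes, 35 exceed their own upper bound, and the sources do not say why. A count model was not possible without read counts, so depth is seen only through those bounds, which cover counting error as far as the authors modelled it. FPKM of entries sharing a symbol were summed.

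All 11 libraries entered 1 model of group means in limma 3.58.1 (R 4.3.3) on log2 of FPKM plus 1, with trended variance moderation and p-values adjusted by Benjamini-Hochberg at 0.05 over 11431 symbols that reached 1 FPKM in 2 or more libraries. The members, lists and tests were chosen with earlier results of these data known. Genes are named by a rule that takes all 7 members, up to 3 called genes per list and direction with the largest change, and the 3 genes most like each member, predicted genes excepted. The values of 1 listed gene are not reported here. Fos, and the marker genes named beside a result, were added after their values were seen. The authors' deposited table of group values was used for its ratios. The model was tested on simulated data.

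Same-numbered KO and HET CD62Llo libraries deviated weakly together from their group means (r of 0.165, 0.153 and 0.148). Deviations from a group mean constrain each other, so these values are not separate observations. No label names a shared source, and the pairing of these libraries is unsettled. The other pairs of groups had at least 1 same-numbered correlation under 0.1. Among them the fractions of KO had r of 0.131, 0.068 and 0.178, each the highest for its KO CD62Llo library. The fractions of HET had 0.135 and 0.073. Alternatives were a pseudocount of 0.1 or 0.5, no filter, a minimum of 5 FPKM, median centring, quantile normalization, the interval midpoint, a replicate block, only the groups compared, no trend with a robust fit, and leaving out each library.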

Additional observations from a re-analysis of the deposited data

Results flagged for a closer look

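For none of the 7 genes did the test of the KO against the HET fraction difference pass, and groups of 2 or 3 libraries are too small to look for a single library far from the rest. Among all genes the fraction difference of Mir1905, a microRNA locus, differed between KO and HET, with an interaction of 7.001 on the log2(FPKM + 1) scale (adjusted p = 9.1e-04). It was listed at 230, 209 and 143 FPKM in KO CD62Llo against 195, 120 and 128 FPKM in KO CD62Lhi, and at 0 in all 3 HET CD62Llo libraries against 60.9 and 152 FPKM in HET CD62Lhi. The size of the interaction rests on the pseudocount because of the group listed at 0, and poly(A) libraries do not measure mature microRNAs.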

How the results depend on the processing

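Over 21 alternatives, Egr2 passed as higher in CD62Llo cells in all of them in both genotypes, as did Egr3 and Nr4a3 in KO, and all 6 factor genes passed under every alternative that gives a value for the average of the genotypes. Of the member values under alternatives 905 kept their direction and side of the threshold, 22 lost a call, 11 gained one and 63 changed sign, all of the 63 for Cd69 or for the KO fraction difference against that of HET. The cause of these changes was not tested. Nr4a2 has no value under the minimum of 5 FPKM, and the comparisons that need all 4 groups have none when only the groups compared are fitted. Quantile normalization moved the median of all genes by −0.10 in the HET fraction comparison, beside log2 changes of 0.43 to 1.08 for the 5 called genes there. It left 3 of 7 genes called in the KO fraction comparison. Under median centring, which moved that HET median by −0.097, Nr4a1 lost its call by limma in both genotypes. Its log2 change was then 0.32 in HET (adjusted p = 0.088) and 0.34 in KO (adjusted p = 0.073), and 4 of 7 genes were called in each. Median centring turned the share of calls that were higher to 44.0% for the averaged fraction comparison, against 68.8% as deposited, and to 35.5% for the averaged genotype comparison, against 24.4%.

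With the replicate block Nr4a1 lost its call in the KO fraction comparison (adjusted p = 0.0501) and Egr1 gained one in KO and in HET (adjusted p = 0.0121 in both). No label names a shared source for the numbers. Same-numbered libraries of the fractions had r of 0.068 to 0.178 in KO and of 0.073 and 0.135 in HET, which leaves their pairing unsettled. The block left the 7 genes without a call between KO and HET CD62Llo cells, and changed no other member's call. It gave 280 genes for KO against HET averaged over fractions, against 168, and no filter gave 105. Fitting only the groups compared gave 109 genes in place of 526 for KO against HET CD62Llo and 5 in place of 0 for CD62Lhi. The fraction difference of KO against HET called 4 genes with no filter and 5 with a robust fit without trend, in place of 1.

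Signs turned as follows. Cd69 was at −0.0113 in the KO fraction comparison and at −0.00015 in the averaged one under median centring, and with the replicate block at −0.0412 for KO against HET CD62Lhi, at −0.0058 averaged over fractions and at 0.0707 for the KO fraction difference against that of HET. The KO minus HET fraction difference under median centring was 0.0156 for Nr4a1, 0.0075 for Egr1, 0.0207 for Egr2 and 0.0248 for Egr3. It was 0.0050 for Egr2 and 0.0030 for Egr3 with a pseudocount of 0.1, 0.00019 and 0.0014 with 0.5, 0.0147 and 0.0295 under quantile normalization, and 0.0228 and 0.0068 at the interval midpoint, where Egr1 was at 0.00079.

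Leaving out 1 library at a time, 3 to 5 of the 7 genes passed in the KO fraction comparison and 2 to 6 in that of HET, with 2 without HET CD62Lhi replicate 1, 0 to 1 between KO and HET CD62Llo, and 0 to 1 between the genotypes averaged. Over all genes the counts were 1187 to 1974 for the KO fractions, 1916 to 3337 for the HET fractions, 182 to 610 for KO against HET CD62Llo, 0 to 5 for CD62Lhi, 1 to 5 for the difference of fraction differences and 6 to 271 for the genotypes averaged. The value of Cd69 ranged from −0.0678 to 0.19 in the KO fractions, −0.10 to 0.34 in the HET fractions, −0.0136 to 0.21 averaged, −0.14 to 0.24 for KO against HET CD62Llo, −0.14 to 0.30 for CD62Lhi, −0.0565 to 0.16 for the genotypes averaged and −0.27 to 0.17 for the difference of fraction differences. That difference ranged from −0.12 to 0.10 for Nr4a1, −0.19 to 0.10 for Nr4a3, −0.17 to 0.15 for Egr1, −0.17 to 0.15 for Egr2 and −0.15 to 0.15 for Egr3. Nr4a2, with the widest deposited intervals, is the gene whose depth limits it most.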
